A study of Mus musculus with 6 samples.

Results

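The immunity-related GTPases (IRGs) are a mouse gene family, and 9 genes were read from the expression table by gene symbol, of the 53700 genes listed: Irgm1, Irgm2, Igtp, Iigp1, Ifi47, Tgtp1, Tgtp2, Irgq and the very large GTPase gene Gvin1. Each symbol matched 1 row. The cells were SL4, a mouse colorectal cancer (CRC) line that expresses luciferase. The design compared 3 libraries of pLV-SEMA6A cells, which carry a lentivirus for SEMA6A overexpression, with 3 libraries of cells without SEMA6A overexpression, called pLV-Control, and the labels give no further treatment of either group. The name pLV-Control is the one that the study's results give to these control cells, whereas its methods name the sequenced lines as SL4 and pLV-SEMA6A, so the sources do not settle whether the controls carried a control virus. No independently made pLV-SEMA6A lines are described, so an effect of SEMA6A, of the virus and of a difference between lines cannot be told apart. Nothing states that the 3 libraries of a group came from separate cultures, so the p-values measure the spread between these libraries, which may be technical.

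IRG proteins are cytosolic GTPases that mouse cells make in response to interferon. They act on the vacuoles in which parasites and bacteria such as Toxoplasma and Chlamydia live. Effector IRGs (Iigp1, also called Irga6, Ifi47, also called Irgd, and Tgtp1 and Tgtp2, both called Irgb6) coat and break the vacuole, whereas the regulatory IRGs Irgm1, Irgm2 and Igtp (Irgm3) sit on the membranes of the cell itself and keep the effectors inactive there. Interferon is known to switch on transcription of the family through promoter elements called GAS and ISRE, and IRF1 and IRF9 are among the factors that bind the ISRE.

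The promoters of 7 members were held by the RefSeq promoter table on GRCm38.p6, in windows of 300 bases from 250 before to 50 after the gene start. An ISRE core, GAAANNGAA, and a GAS core, TTCNNNGAA, were searched on both strands. The ISRE core was in 5 of the 7 windows (Irgm1, Irgm2, Igtp, Tgtp1 and Tgtp2) and in 8.56% of the 32851 promoters of the table. The GAS core was in 4 of the 7 (Irgm2, Igtp, Tgtp1 and Tgtp2) and in 8.3% of all promoters, and both were in 1.07% of all promoters. Neither was in the windows of Ifi47 and Irgq, which says only that these letters are not there. The last 150 bases before the start are shown for 6 members, because they show one arrangement shared by 4 promoters, a different one in Irgm1 and none in Ifi47. Capitals mark the GAS and ISRE cores, and each line reads 5′ to 3′ in the direction of the gene.
Irgm1: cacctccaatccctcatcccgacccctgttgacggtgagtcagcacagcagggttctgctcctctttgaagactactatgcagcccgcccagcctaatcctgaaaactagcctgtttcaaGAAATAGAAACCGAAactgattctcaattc
Igtp: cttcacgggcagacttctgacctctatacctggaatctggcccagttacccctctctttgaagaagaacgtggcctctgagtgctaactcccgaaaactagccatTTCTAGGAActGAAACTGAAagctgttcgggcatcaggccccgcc
Irgm2: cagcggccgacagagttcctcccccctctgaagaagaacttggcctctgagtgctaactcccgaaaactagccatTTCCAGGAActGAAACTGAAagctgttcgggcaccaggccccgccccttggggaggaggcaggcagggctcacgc
Tgtp1: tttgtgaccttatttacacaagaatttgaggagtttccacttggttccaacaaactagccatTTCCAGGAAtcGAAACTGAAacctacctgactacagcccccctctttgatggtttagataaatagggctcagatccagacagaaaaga
Tgtp2: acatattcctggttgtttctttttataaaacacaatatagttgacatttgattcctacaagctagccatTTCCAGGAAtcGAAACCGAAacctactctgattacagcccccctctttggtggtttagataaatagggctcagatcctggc
Ifi47: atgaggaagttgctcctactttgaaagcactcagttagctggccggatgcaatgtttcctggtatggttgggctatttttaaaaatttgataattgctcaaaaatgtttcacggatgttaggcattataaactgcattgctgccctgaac
The stretch of Irgm1 is chr11:48871421-48871570 on the minus strand, that of Igtp chr11:58199406-58199555 on the plus strand and that of Irgm2 chr11:58214827-58214976 on the plus strand. That of Tgtp1 is at chr11:48992247-48992396 and Tgtp2 at chr11:49064213-49064362, both on the minus strand, and Ifi47 at chr11:49076437-49076586 on the plus strand. These positions are on GRCm38.p6, directly before the RefSeq start of each gene.

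In Igtp, Irgm2, Tgtp1 and Tgtp2 the GAS core was followed after 2 bases by an ISRE core in the same direction. Counted from the gene start, the GAS core began at −45 in Igtp, −75 in Irgm2, −88 in Tgtp1 and −81 in Tgtp2. Irgm1 had no GAS core and instead had 2 overlapping ISRE cores, from −30 to −22 and from −24 to −16. The spaced pair was looked for in all promoters after it had been seen in these. Of the 32851, 8 (0.0244%) held it: the 4 members, the IRG-like gene Gm12185, Adar, Olfr382 and LOC115488470. The bases around the cores were also much alike between Igtp and Irgm2, and among Tgtp1, Tgtp2 and Gm12185. Promoters so alike are not independent occurrences, which the shares over all promoters do not take into account. Adar, which edits double-stranded RNA, reached 60.9, 62.5 and 59.5 TPM in the control libraries and 42.6, 41.4 and 39.9 TPM in the SEMA6A-overexpressing ones. Its log2 fold change was −0.55 (SE 0.039, limma adjusted p = 9.25e-05). Olfr382, an olfactory receptor gene, was listed at 0 in all 6 libraries, so the arrangement of letters was also present in a promoter with no measured transcript.

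**Figure D1:**
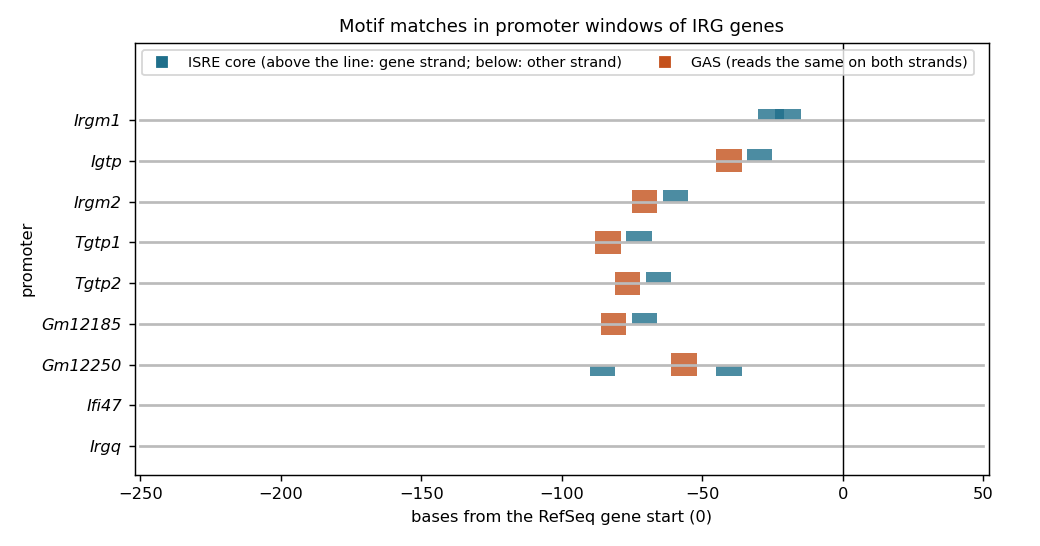
Matches to the ISRE core (blue) and the GAS core (orange) in the RefSeq promoter windows of 7 members and of the IRG-like genes Gm12185 and Gm12250, with the distance in bases from the gene start at 0 on the x axis and 1 gene per row. The GAS core stands directly before the ISRE core in Igtp, Irgm2, Tgtp1, Tgtp2 and Gm12185, and the rows of Ifi47 and Irgq are empty.

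Expression values were deposited as TPM, which corrects for transcript length and library total, and the listed TPM added up to 977400 to 986444 in each library. TPM keeps no sequencing depth, so no counting error or detection limit can be given. Pearson correlations of log2(TPM + 1) across genes were 0.967 to 0.979 within groups and 0.941 to 0.957 between groups. Sema6a itself, listed at 0 in all 3 control libraries, had 98.7, 118 and 112 TPM with pLV-SEMA6A, as labelled. Differences were tested on log2(TPM + 1) with limma over the 12510 genes whose mean reached 1 TPM, and a gene was called a DEG at an adjusted p under 0.05 with an absolute log2 fold change over 0.5. This scale understates the change of low genes. With 3 libraries in each group, the smallest p that exact permutation can give is 0.1, and each of the 9 members had that p.

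IRG transcripts were lower in pLV-SEMA6A cells. The 9 genes summed to 218 ± 3.31 TPM in the controls, compared with 77.6 ± 2.74 TPM under SEMA6A overexpression (SD, n = 3 each). Of the 8 members tested, 7 were downregulated DEGs and none was an upregulated one. Of these 7, Tgtp1 reached the mean of 1 TPM needed for testing only through pLV-Control. Among all 12510 genes tested, 1347 (10.8%) were downregulated DEGs and 640 (5.12%) upregulated ones. With every library centred at its median gene, 961 genes were lower and 1002 higher, so that the share of lower calls among DEGs went from 67.8% to 49.0%, and the same 7 members were still downregulated. The median log2 fold change of the 8 tested members was −1.32, against −0.06 over all genes tested. All 9 members, Gvin1 included, had every pLV-SEMA6A library below every pLV-Control library, which held for 34.7% of the genes tested. In bulk RNA, fewer cells expressing a gene and less RNA per cell cannot be told apart.

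**Figure D2:**
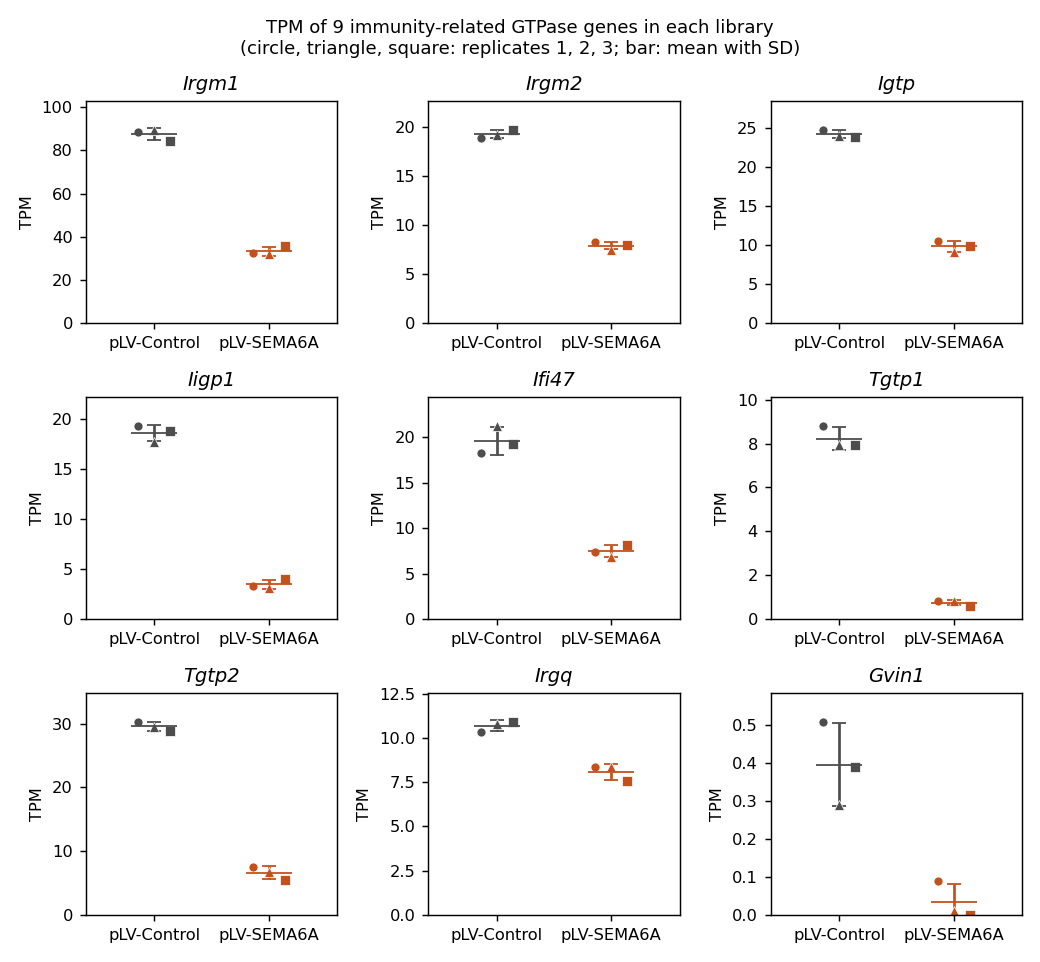
TPM of each of the 9 genes (y axis, from 0, own scale in each panel) in the 3 pLV-Control (grey) and 3 pLV-SEMA6A (orange) libraries, with the group mean as a horizontal bar and the SD as whiskers. The groups are apart in all 9 panels, with the narrowest relative gap in Irgq, and the Gvin1 panel spans less than 1 TPM.

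Irgm1, the regulatory IRG linked to the autophagy and defence of macrophages, was the most abundant member by TPM in both groups. It had TPM values of 88.6, 89.6 and 84.6 across pLV-Control, against 32.5, 31.9 and 35.7 across pLV-SEMA6A. All 3 pLV-SEMA6A libraries were low, with the highest of them at 42.2% of the lowest control library. The mean fell to 38.1% of control, with a log2 fold change of −1.37 (SE 0.052, 95% interval −1.49 to −1.24, limma adjusted p = 8.49e-06).

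Igtp, the regulatory member known as Irgm3 that localises to the endoplasmic reticulum and lipid droplets, was measured at 24.8, 24.1 and 23.9 TPM in the 3 controls, compared with 10.6, 9.13 and 9.88 TPM in those of pLV-SEMA6A. Irgm2, the regulatory member of the Golgi apparatus, reached 18.9, 19.2 and 19.7 TPM in the control libraries and 8.24, 7.49 and 7.96 TPM in the SEMA6A-overexpressing ones. Both genes were low in all 3 pLV-SEMA6A libraries, and the groups did not overlap. Igtp fell to 40.6% of control (log2 fold change −1.22, SE 0.062, limma adjusted p = 2.73e-05) and Irgm2 to 41.0% (log2 fold change −1.19, SE 0.056, limma adjusted p = 1.98e-05). The 3 regulatory members therefore had similar log2 fold changes, although Irgm1 started from a much higher level.

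Among the effectors, Iigp1, an IRG that oligomerises on the vacuole membrane, had TPM values of 19.3, 17.7 and 18.7 across pLV-Control, against 3.29, 3.11 and 3.99 across pLV-SEMA6A. The groups were far apart, and the mean was 18.7% of control, between 16.1% and 22.6% for single pairs of libraries. Its log2 fold change was −2.14 (SE 0.091, limma adjusted p = 1.33e-05). Ifi47 was measured at 18.3, 21.3 and 19.3 TPM in the 3 controls, compared with 7.42, 6.88 and 8.20 TPM in those of pLV-SEMA6A. Its groups did not overlap either, with the widest relative spread among the control values of the called members. Its log2 fold change of −1.28 (SE 0.084, limma adjusted p = 6.79e-05) was next to those of the regulatory members rather than to that of Iigp1, although both genes had begun at about the same level.

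Tgtp1 and Tgtp2 encode Irgb6, an effector that arrives early on the vacuole, and are nearly the same gene. Tgtp2 reached 30.3, 29.5 and 28.9 TPM in the control libraries and 7.51, 6.75 and 5.55 TPM in the SEMA6A-overexpressing ones. Tgtp1 had TPM values of 8.82, 7.92 and 7.92 across pLV-Control, against 0.80, 0.84 and 0.61 across pLV-SEMA6A. Neither gene had overlapping groups, and Tgtp1 passed the filter on low values only through pLV-Control. Tgtp1 fell to 9.12% of control (log2 fold change −2.40, SE 0.11, limma adjusted p = 1.79e-05) and Tgtp2 to 22.3% (log2 fold change −2.02, SE 0.099, limma adjusted p = 2.30e-05).

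The coding sequences of Tgtp1 and Tgtp2 in GENCODE M21 were identical at 1241 of 1245 bases (99.7%). The other pairs among the 8 members without Gvin1 had between 61.2% and 74.6% identity over aligned bases, the highest being Irgm2 and Igtp. With gaps counted as differences, these other pairs ran from 39.8% (Iigp1 and Irgq) to 67.9% (Irgm2 and Igtp). Of the 31-base stretches of Tgtp1 transcripts, 83.2% also occurred in Tgtp2, so the split of reads between the pair is uncertain. Summed, the pair was measured at 39.1, 37.4 and 36.8 TPM in the 3 controls, compared with 8.31, 7.59 and 6.16 TPM in those of pLV-SEMA6A. The sum depends on that split only through any difference in transcript length, and its groups were again apart. It fell to 19.5% of control, with a log2 fold change of −2.22 (SE 0.099, limma adjusted p = 1.59e-05). Tgtp1 made up 21.2% to 22.5% of the pair in the pLV-Control libraries and 9.63% to 11.1% in the pLV-SEMA6A libraries. The part of read assignment in this shift was not tested. Annotated positions also overlapped between Igtp and Irgm2, between Tgtp1 and Gm12185, and between Ifi47 and Gm12188. Those of Olfr56 overlapped with each of Tgtp1, Tgtp2 and Ifi47. Strandedness of the libraries was not given in the sources used here.

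Irgq, a divergent member that is not known as interferon-inducible, reached 10.4, 10.8 and 10.9 TPM in the control libraries and 8.34, 8.33 and 7.56 TPM in the SEMA6A-overexpressing ones. The groups did not overlap but were close. The mean was 75.6% of control, and the log2 fold change of −0.37 (SE 0.065, 95% interval −0.52 to −0.21) had an adjusted p of 0.00418 from limma, under the p threshold but short of the minimum fold change. Without a minimum fold change, 28.2% of all genes tested passed as lower. Irgq was thus the only one of the 8 tested members that was not a DEG. Gvin1, which encodes a very large interferon-inducible GTPase, had TPM values of 0.51, 0.29 and 0.39 across pLV-Control, against 0.09, 0.01 and 0 across pLV-SEMA6A. Its mean was under 1 TPM, so it was not tested, and 99.7% of its 31-base stretches occurred in other genes, mostly in Gm4070, so these values are uncertain.

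**Figure D3:**
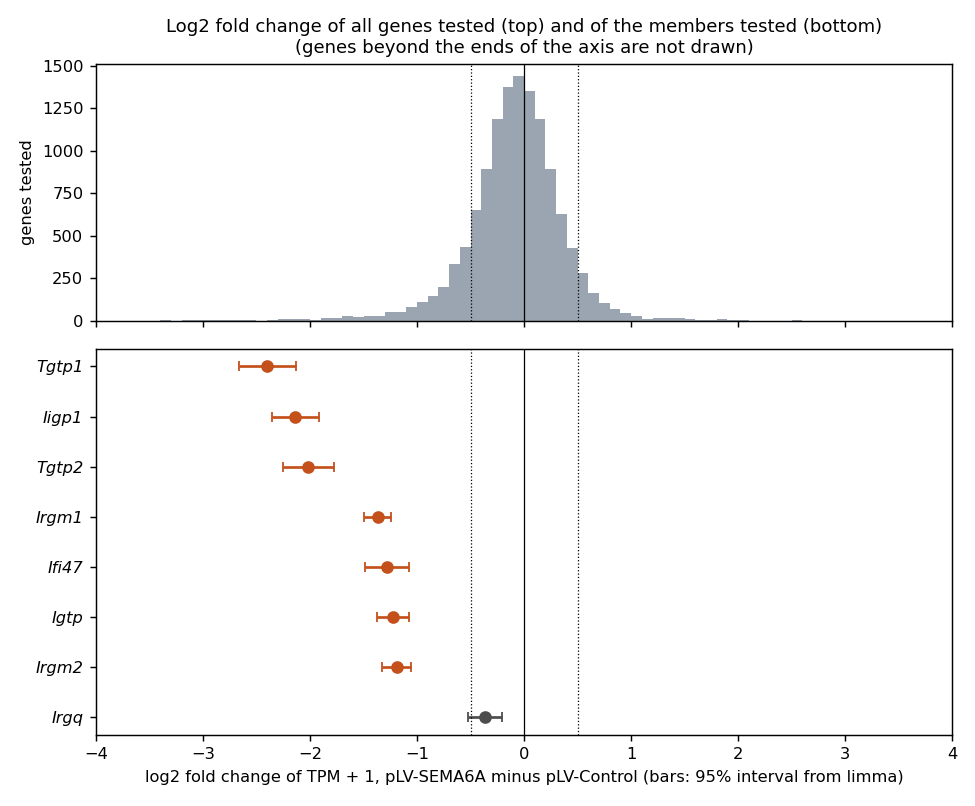
Log2 fold change of TPM + 1, pLV-SEMA6A minus pLV-Control (x axis), for all 12510 genes tested as a histogram of gene counts (top) and for the 8 tested members with their 95% intervals from limma (bottom). Dotted lines mark the minimum fold change of 0.5 in either direction, DEGs are orange, genes beyond the ends of the x axis are not drawn, and Tgtp1 (−2.40), Iigp1 (−2.14) and Tgtp2 (−2.02) lie to the left of Irgm1 (−1.37), Ifi47, Igtp and Irgm2 (−1.19).

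The size of the difference varied among the members. The log2 ratio of TPM of each pair of the 8 tested members was taken within each library, and its values did not overlap between the groups in 21 of 28 pairs (exact permutation p = 0.1 each, 0.133 after adjustment over the 28 pairs, with 0.1 the smallest unadjusted p that this test allows). The 7 pairs that overlapped were the 6 pairs among Irgm1, Irgm2, Igtp and Ifi47, and the pair of Iigp1 and Tgtp2. The ratio of Irgm1 to Ifi47 was 2.16 ± 0.105 on the log2 scale in pLV-Control and 2.16 ± 0.049 in pLV-SEMA6A. That of Irgm1 to Iigp1 went from 2.24 ± 0.089 to 3.27 ± 0.102, and that of Irgm1 to Tgtp1 from 3.42 ± 0.085 to 5.49 ± 0.336. The ratio of Tgtp2 to Irgq went from 1.47 ± 0.075 to −0.30 ± 0.147 (SD, n = 3 in each group). Relative to the regulatory members and Ifi47, the levels of Iigp1, Tgtp1 and Tgtp2 were thus lower in every pLV-SEMA6A library than in any control library, and that of Irgq was higher. The exact permutation test used here cannot pass 0.05 for such ratios. The 28 pairs reuse the same 8 genes, and the share of pairs without overlap among other genes was not computed. Pairs with Tgtp1 or Tgtp2 also rest on the uncertain split of reads between these genes.

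The order of the levels changed with it. In pLV-Control it ran from Irgm1 through Tgtp2 and Igtp to Ifi47, Irgm2 and Iigp1, whose neighbouring ranges overlapped, and then to Irgq, Tgtp1 and Gvin1. In pLV-SEMA6A it ran from Irgm1 through Igtp to Irgq, with overlapping ranges between neighbours from Irgq through Irgm2 and Ifi47 to Tgtp2, and then followed Iigp1, Tgtp1 and Gvin1. Tgtp2 therefore went from place 2 to place 6 and Irgq from place 7 to place 3. Irgm1 made up 40.1 ± 0.614% of the summed TPM of the 9 genes in pLV-Control and 43.0 ± 1.82% in pLV-SEMA6A. The share of Irgq was 4.90 ± 0.194% and 10.4 ± 0.850%, and that of Tgtp2 was 13.6 ± 0.206% and 8.53 ± 1.36% (SD, n = 3 each).

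Of 9 further IRG genes listed, 3 passed the filter on low values, and all 3 were downregulated DEGs, 2 of them through pLV-Control only, where 10.8% of all genes tested were such DEGs. Gm4951, which lies on chromosome 18 as Iigp1 does, averaged 6.33 ± 0.232 TPM without and 0.477 ± 0.029 TPM with SEMA6A overexpression (SD, n = 3 each), and its log2 fold change was −2.31 (SE 0.11, limma adjusted p = 1.93e-05). It was −1.31 for 9930111J21Rik2 and −1.23 for 9930111J21Rik1, which share 59.5% and 85.6% of their stretches with each other and are uncertain for that reason. Including genes too low to test, 7 of the 9 had every pLV-SEMA6A library below every control library, against 34.7% of the genes tested, a share that leaves out genes so low. Irgc1, a testis-expressed IRG, and Gm5431 overlapped between the groups. Gvin2, of the same family as Gvin1, was measured at 1.23, 2.46 and 1.70 TPM in the 3 controls, compared with 0, 0.01 and 0.06 TPM in those of pLV-SEMA6A. It was not tested because its mean over the 6 libraries was under 1 TPM. Of its 31-base stretches, 98.6% occurred in other genes, mostly in Gvin1, so its values are uncertain too. Gvin3 was listed at 0 throughout.

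In GENCODE M21 the family on chromosome 11 forms 2 groups. The first holds 8 genes in the order Irgm1, Gm5431, Gm12185, 9930111J21Rik1, Tgtp1, 9930111J21Rik2, Tgtp2 and Ifi47, and the second holds Gm12250, Igtp and Irgm2. The nearest tested genes outside the groups were looked at after the members' values were seen, and 1 of the 4 was a DEG. Of all genes tested, 10.8% were downregulated and 5.12% upregulated DEGs, so a count over 4 genes says little. Trim7, before the first group, had a log2 fold change of −0.43 (SE 0.21, limma adjusted p = 0.139) and Zfp62, after it, of −0.39 (SE 0.080, limma adjusted p = 0.00746, short of the minimum fold change). Mrpl22, before the second group, encodes a mitochondrial ribosomal protein and had a log2 fold change of 0.04 (SE 0.045, limma adjusted p = 0.490). Zfp692, after it, encodes a zinc finger protein and fell from 25.6 ± 1.58 to 15.8 ± 1.07 TPM (log2 fold change −0.66, SE 0.069, limma adjusted p = 0.000455). Of the other members, Iigp1, a downregulated DEG, lies on chromosome 18. Irgq, which was not a DEG, and Gvin1, which was not tested, lie on chromosome 7. The part of chromosomal position in the differences was not tested.

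The guanylate-binding proteins (GBPs) are larger interferon-inducible GTPases that join IRGs on the vacuole. Of 11 listed, 8 were tested and all 8 were downregulated DEGs, with a median log2 fold change of −1.57, where 10.8% of all genes tested were such DEGs. The filter was passed only through pLV-Control by 4 of them. Gbp3 was the most abundant and fell from 63.5 ± 1.08 to 12.1 ± 0.605 TPM (SD, n = 3 each; log2 fold change −2.30, SE 0.048, limma adjusted p = 7.85e-07). The log2 fold change was −2.48 (SE 0.11) for Gbp9, −2.14 (SE 0.34) for Gbp6 and −1.71 (SE 0.048) for Gbp7. Gbp9 passed the filter only through pLV-Control. The pLV-SEMA6A libraries differed widely for Gbp6, at 0.33, 1.52 and 2.53 TPM. Stretches shared between GBPs were not counted. Of the Mx GTPases, dynamin-like proteins that act on viruses, Mx2 was tested and fell from 17.6 ± 1.93 to 5.48 ± 1.59 TPM (log2 fold change −1.55, limma adjusted p = 0.00105).

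**Figure D4:**
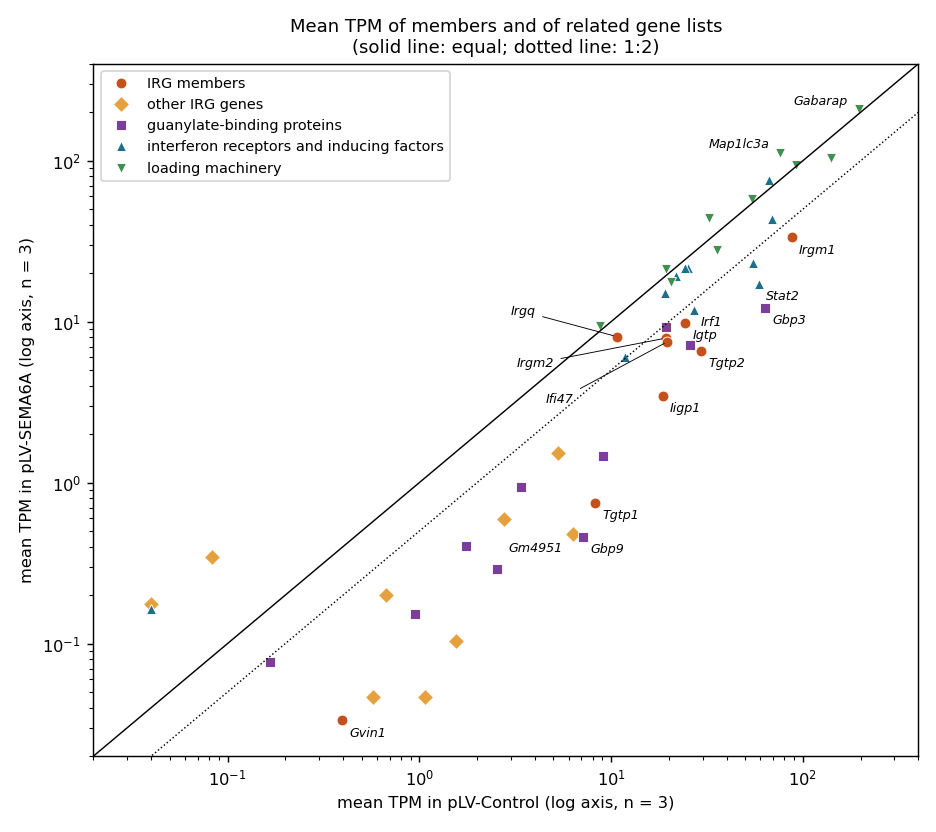
Mean TPM in pLV-Control (x axis) against pLV-SEMA6A (y axis), both on log scales and n = 3, for the 9 members, other IRG genes, GBPs, interferon receptors and inducing factors, and the genes that load IRGs, leaving out genes near or at 0 in either group. The members other than Irgq and the GBPs lie under or close to the dotted line of 1:2, and the loading genes lie near the solid line of equal levels.

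The interferon receptors, their kinases and factors such as STAT2, IRF1 and IRF9 are known to act upstream of IRG transcription. Of 13 such genes listed, 10 were tested, of which 5 were downregulated DEGs and none was upregulated, with a median log2 fold change of −0.48. Over all genes tested, 10.8% were downregulated and 5.12% upregulated DEGs. Stat2 fell from 58.7 ± 1.29 to 17.3 ± 1.45 TPM (log2 fold change −1.71, SE 0.063, limma adjusted p = 7.76e-06). Irf1, the factor that binds ISRE elements after interferon gamma, fell from 27.0 ± 2.13 to 11.8 ± 1.27 TPM (log2 fold change −1.13, limma adjusted p = 0.000166), and Irf9, the partner of STAT2, had a log2 fold change of −1.21. The kinase Tyk2 (−0.88) was also a DEG, as was the type I receptor chain Ifnar2 (−0.64). The kinase Jak1 went the other way (log2 fold change 0.19, limma adjusted p = 0.00231) and missed the minimum fold change. Jak2 (−0.32) and the type I receptor chain Ifnar1 (−0.15) were not DEGs either. Ifnar2, Jak1, Jak2 and Ifnar1 are named here after their values were seen.

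Both chains of the interferon gamma receptor were not DEGs. Ifngr1, its ligand-binding chain, was at 25.3 ± 0.420 and 21.4 ± 0.196 TPM (log2 fold change −0.23, limma adjusted p = 0.00352), and Ifngr2, the signalling chain, had a log2 fold change of −0.18 (limma adjusted p = 0.0279). Both passed the p threshold and missed the minimum fold change. Ifng and Irf8 were listed at 0 in all 6 libraries, and Ifnb1 did not exceed 0.25 TPM in any of them. No interferon treatment is described for the sequenced SL4 libraries.

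Loading of IRGs onto a vacuole is known to need part of the autophagy machinery, namely the ATG5-ATG12-ATG16L1 complex, ATG3, ATG7 and the LC3 and GABARAP proteins. All 10 listed genes were tested, and 9 were not called, of which 5 passed the p threshold and missed the minimum fold change. Among all 12510 genes tested, 1987 were DEGs, and 5959 passed the p threshold without a minimum fold change. Map1lc3a, an LC3 protein, rose from 76.0 ± 3.83 to 111 ± 4.88 TPM (log2 fold change 0.55, SE 0.050, limma adjusted p = 0.000258). Atg5 had a log2 fold change of 0.13 (SE 0.074, limma adjusted p = 0.178) and Atg7 of 0.10 (SE 0.078, limma adjusted p = 0.332). The 10 changes ran from −0.43 to 0.55 with a median of 0.10, above that of all genes. Of 3 genes for ubiquitin on the vacuole, the receptor Sqstm1, also called p62, fell from 1619 ± 12.3 to 987 ± 3.83 TPM (log2 fold change −0.71, limma adjusted p = 8.18e-07) and the ligase Trim21 had a log2 fold change of −0.95 (limma adjusted p = 0.00119), while Traf6 was not called (0.14, limma adjusted p = 0.252).

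The 5 genes whose profile over the 6 libraries lay nearest to the mean profile of the tested members were found by Euclidean distance of centred log2(TPM + 1), among 8178 other genes whose mean reached 10 TPM. They were Dtx3l (distance 0.0791), Ddx58 (0.117), Ptx3 (0.145), Ifi211 (0.160) and Casp4 (0.168). Dtx3l encodes a ubiquitin ligase, Ddx58 the RNA sensor RIG-I, Ptx3 a secreted pentraxin, Ifi211 a member of the interferon-inducible p200 family and Casp4 the mouse caspase that binds lipopolysaccharide. Dtx3l, the nearest of them, went from 15.8 ± 0.276 to 5.20 ± 0.185 TPM. Members themselves lay 0.207 (Irgm1) to 1.39 (Irgq) from their mean profile. The 5 genes were closer to it, but they had been picked as the nearest of 8178. Their closeness and the fall of Dtx3l come with that choice and are no separate result. The likeness rests on 6 libraries in 2 groups and is a description.

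Markers of macrophages, lymphocytes and endothelium were low. Of 6 macrophage markers, Adgre1 and Itgam were listed at 0 in all 6 libraries, and the list summed to 1.05 to 2.53 TPM in pLV-Control and 0.87 to 1.76 TPM in pLV-SEMA6A. Of 6 lymphocyte markers, 3 were at 0 throughout and none exceeded 0.22 TPM, and none of 4 endothelial markers exceeded 0.15 TPM. The 5 fibroblast markers reached at most 3.80 TPM each and summed to 5.06 to 6.38 TPM in pLV-Control and 6.96 to 7.99 TPM in pLV-SEMA6A, with Col1a1 called higher and Pdgfra lower, and their part in the IRG differences was not tested. Epithelial markers were also near 0. Epcam and Cdx2 were listed at 0 in all 6 libraries, and none of the 8 markers exceeded 0.39 TPM, so these RNA values do not show the epithelial identity that the label of a colorectal cancer line would give.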

How the data were processed

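Poly-A mRNA of 3 pLV-Control and 3 pLV-SEMA6A libraries of SL4 cells was sequenced by Illumina. Values were deposited as TPM by the authors, with 2 decimals, for each library and the mean of each group, and the submitters' processing notes name HISAT, Bowtie2 and RSEM and the build mm39, without roles. The 2 columns of group means were not used. The authors compared groups with DESeq2, which needs counts. Here, log2(TPM + 1) was fitted for the 12510 genes whose mean reached 1 TPM with limma 3.58.1 (trend option) in R 4.3.3, with the group as the only term and Benjamini-Hochberg adjustment, after the step had been tested on simulated data. To be a DEG, a gene needed both an adjusted p under 0.05 and a log2 fold change beyond 0.5 in either direction.

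Transcript stretches of 31 bases, coding sequences and gene order were taken from GENCODE M21 and promoters from RefSeq, both on GRCm38, matched by identifier or symbol. GENCODE M21 holds 97.1% of the identifiers in the table. No coordinates of mm39 are given, and none were converted. Coding sequences were aligned globally, and identity was counted over aligned bases, or with gaps where stated.

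Members and gene lists were chosen with earlier results of these data known. Besides the 9 members and Sema6a, up to 4 called and 2 uncalled genes of each list and the 5 nearest profiles are named, and others are marked in the text. The result of 1 further gene is left out of the lists and not reported here. The flanking genes of the chromosome 11 groups were to be named only on the files' own build and are named outside that rule. The counts of calls and the log2 fold changes of members and named genes, where tested, were recomputed under alternatives. These were a pseudocount of 0.1, no filter, a mean of at least 5 TPM, library medians centred, and the replicate number as a block. Further alternatives were no trend and each library left out. Other minimum fold changes were applied to the counts only. With Tgtp1 and Tgtp2 summed, only the log2 fold change of the pair was computed, and no calls were counted. Ratios between members, shares, orders of levels, list medians and nearest profiles were not recomputed.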

Additional observations from a re-analysis of the deposited data

How the results depend on the processing

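The count of 7 downregulated members was obtained under each alternative applied to the counts, with the following exceptions. A mean of at least 5 TPM left out Tgtp1 and gave 6, and no minimum fold change added Irgq and gave 8. With other minimum fold changes, the counts over all genes moved: without a minimum, 5959 genes passed (3523 lower, 2436 higher), and with a minimum of 1, 385 did (304 lower, 81 higher). With library medians centred, 961 genes were lower and 1002 higher. With no filter on low values, 6 other IRG genes and 1 other GVIN gene were called lower, and Gvin1, untested otherwise, had a log2 fold change of −0.43 (limma adjusted p = 0.00948). With a mean of at least 5 TPM, 0 other IRG genes and 4 GBPs were called lower, since fewer genes were tested. Without a minimum fold change, 3 loading genes were lower and 3 higher, and 9 of the interferon receptors and inducing factors were lower and 1 higher. With a minimum of 1, 3 of the interferon receptors and inducing factors were lower, 0 loading genes were higher and 0 vacuole ubiquitin genes lower, by construction, and with library medians centred 2 loading genes were higher. The call of the GVIN gene Gvin2 ranged from 0 to 1 when each library was left out, being 1 without any pLV-SEMA6A replicate, because its mean then passed the filter.

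Over the alternatives, the log2 fold change ranged from −1.42 to −1.27 for Irgm1, from −2.40 to −2.04 for Iigp1, from −3.30 to −2.31 for Tgtp1 and from −2.16 to −1.91 for Tgtp2. Of the recomputed values of single genes that are no members, 414 stayed on their side of an adjusted p of 0.05, 24 no longer passed it (of Ifngr2, Ifnar1, Gabarap and Atg16l1), 1 newly passed it (Mrpl22 with library medians centred) and 0 reversed. With the replicate block, 1301 genes were lower and 623 higher, and 7 members were called. Deviations of same-numbered libraries from the group mean were uncorrelated (mean −0.06), so no pairing by number was seen. With 3 libraries in each group, this cannot show that the libraries were unpaired. Depth is unknown, which limits what can be said of Gvin1, Gvin2 and the other genes near 0 TPM.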
